A study of Homo sapiens with 12 samples.

Results

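Expression of 48 genes of the ATF4 amino acid response and of cytosolic tRNA charging was measured in MDA-MB-468, an established line of triple-negative breast cancer. They were named as a list of symbols, chosen with earlier results of these data known. All 48 were found among 23228 genes counted and stayed among the 14571 tested. The list was sorted by role into 13 stress factors, 8 enzymes of serine, glycine and mitochondrial folate metabolism, 6 other amino acid enzymes, 5 amino acid transporters, 15 synthetases and the tRNA exporter XPOT. Poly(A) RNA was sequenced in 4 groups of 3 libraries, A, B and C. Cells received ipatasertib (an inhibitor of the kinase AKT) alone, tazemetostat (an inhibitor of the histone methyltransferase EZH2) alone, both drugs together (the combination), or the solvent DMSO; each drug was given at 5 µM. Tazemetostat or DMSO was present from day -5, ipatasertib was added on day 0, and RNA was taken 24 h later from cells in medium with 2% serum, so every group shares the low serum and the long DMSO or tazemetostat culture. A single cell line was used, and no group has an inactive analogue of either drug as a control. In RNA of whole cultures, fewer cells with a transcript and less transcript per cell cannot be told apart.

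ATF4 is a transcription factor controlled mainly through translation of its mRNA. Kinases that sense lack of amino acids, unfolded protein, double-stranded RNA or lack of heme phosphorylate the initiation factor eIF2, which lowers general protein synthesis while ATF4 protein is made. With C/EBP partners, ATF4 binds C/EBP-ATF response elements near genes that make, import and charge amino acids; mTORC1, a kinase downstream of AKT, is also known to raise ATF4 and part of these targets. MDA-MB-468 is known for extra copies of PHGDH, the entry enzyme of serine synthesis.

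Promoters from RefSeq (GRCh38.p14, from 250 bases before to 50 after each start) matched 37 of the 48 genes, among them 11 synthetases.
A response element with the letters TGATGNAA, on either strand, lay in a promoter of 15 of these 37 genes (40.5%), against 4.46% of 27305 genes in the whole table.
Counted by promoter, 17 of 65 (26.2%) held it, against 3.62% of 35116.
For TGATGCAA the shares were 11 of 37 genes (29.7%), against 1.08% of all genes, and 13 of 65 promoters (20%), against 0.866% of all promoters.
Of the members, 6 of the 11 synthetases (54.5%) held it.
CACGTG, the E-box letters, lay in 7 of 37 genes (18.9%), namely ATF4, MTHFD1L, ALDH18A1, BCAT1, SLC7A5, SLC1A5 and IARS, against 8.77% of all genes, and in 10 of 65 promoters (15.4%), against 7.26% of all promoters; no E-box overlapped a response element.
A match is a description of letters, not a bound site.
The 11 sites with TGATGCAA and the site of ASNS, the gene from which this response is best known, are printed 5′ to 3′ on the strand that carries the element, with 30 bases each and the element in capitals, so that the values below can be read beside them:
CHAC1 (minus strand of chr15:40953251-40953280): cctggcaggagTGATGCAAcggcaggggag
CEBPG (plus strand of chr19:33374060-33374089): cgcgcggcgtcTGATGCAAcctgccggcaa
MTHFD1L (plus strand of chr6:150866346-150866375): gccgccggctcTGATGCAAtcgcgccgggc
ASNS (minus strand of chr7:97872458-97872487): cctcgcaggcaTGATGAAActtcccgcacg
BCAT1 (minus strand of chr12:24949131-24949160): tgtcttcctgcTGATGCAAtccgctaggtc
SLC1A5 (minus strand of chr19:46784893-46784922): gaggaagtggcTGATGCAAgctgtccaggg
AARS (plus strand of chr16:70289675-70289704): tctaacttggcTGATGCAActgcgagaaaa
CARS (plus strand of chr11:3057407-3057436): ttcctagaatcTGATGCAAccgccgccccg
IARS (plus strand of chr9:92293692-92293721): gcgcacggaggTGATGCAAcgcgctgaaaa
MARS (minus strand of chr12:57488053-57488082): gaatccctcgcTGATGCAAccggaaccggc
NARS (minus strand of chr18:57621804-57621833): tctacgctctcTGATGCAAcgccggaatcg
TARS (minus strand of chr5:33440956-33440985): gctggaccagcTGATGCAAtcgaaaggcgc

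Reads counted in genes numbered 12981622 to 28746965 per library, lowest in the combination, and 3 counts equal 0.106 to 0.228 CPM, the count scaled to library size. In all 4 groups library A was unlike the other pair: over genes, chi-square per degree of freedom came to 2.41 to 3.61 between B and C and 4.36 to 15.5 between A and either of them. Member calls that end or appear without the A libraries are therefore given beside the results, and for the interaction in part. Reads assigned to no gene made up 22.3 to 24.3% of the total under ipatasertib, 19.8 to 23.0% under tazemetostat and 24.3 to 26.2% under both drugs, against 18.2 to 21.0% under DMSO; the part of this shift in the results was not tested. All 8 epithelial markers were at or above 1 CPM in each group, and their summed level was 8513 to 8590 CPM under ipatasertib, 8205 to 8387 CPM under tazemetostat and 6809 to 7593 CPM under both drugs, against 8985 to 9666 CPM under DMSO. The 6 leukocyte markers summed to 75.2 to 97.0 CPM under ipatasertib, 53.1 to 61.0 CPM under tazemetostat and 58.5 to 68.2 CPM under both drugs, against 77.2 to 82.9 CPM under DMSO, with 1 marker at or above 1 CPM in every group. The 4 endothelial markers summed to 1.55 to 2.09 CPM under ipatasertib, 1.12 to 1.49 CPM under tazemetostat and 3.902 to 5.04 CPM under both drugs, against 0.545 to 0.963 CPM under DMSO. The 6 fibroblast markers summed to 5.23 to 5.53 CPM under ipatasertib, 15.7 to 19.3 CPM under tazemetostat and 9.48 to 11.4 CPM under both drugs, against 9.72 to 11.7 CPM under DMSO, with DCN and LUM without a read under ipatasertib and DMSO. The part of these marker shifts in the results was not tested. CPM uses the total times the TMM factor and is not corrected for gene length, so levels are compared between groups and not between genes. Levels are given for libraries A, B and C in that order, errors are the SD of 3 libraries or the SE of a log2 fold change, and p-values are from edgeR's quasi-likelihood test, adjusted over 14571 genes, with a call at an adjusted p under 0.05. Nothing in the labels ties the letters to separate cultures, so the p-values reflect the spread among libraries, and that may be technical.

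Most called members were lower with each treatment. With ipatasertib and with the combination, every role but the tRNA exporter held called members in both directions. With tazemetostat no transporter or synthetase was called higher in the fit of all libraries with TMM factors. With ipatasertib 8 members rose and 19 fell, while 24% of all genes tested rose and 23.1% fell (47.1% called). With tazemetostat 6 rose and 19 fell, while 25.9% of all genes rose and 21.3% fell (47.2% called). With the combination 10 rose and 24 fell, while 34.4% of all genes rose and 30% fell (64.4% called). Called in either direction were 56.3%, 52.1% and 70.8% of the 48, somewhat above all genes, with the excess on the side of falls. The median log2 fold change of the 48 was -0.14 under ipatasertib, -0.12 under tazemetostat and -0.21 under both drugs, where the medians of all genes were 0.0039, 0.0090 and 0.030. With libraries scaled by their totals alone, the split was 10 higher and 13 lower with ipatasertib and 8 higher and 13 lower with tazemetostat. That scaling added rises of SHMT2 and CBS with ipatasertib, AARS and SARS with tazemetostat, and ASNS with the combination. Leaving out ipatasertib A gave 5 higher with ipatasertib, and leaving out DMSO B gave 12 lower. Without the A libraries of all groups, 26 of the 27 calls with ipatasertib, 25 of 25 with tazemetostat and 31 of 34 with the combination were still made. The plot of log2 fold changes shows each member by role.

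**Figure D1:**
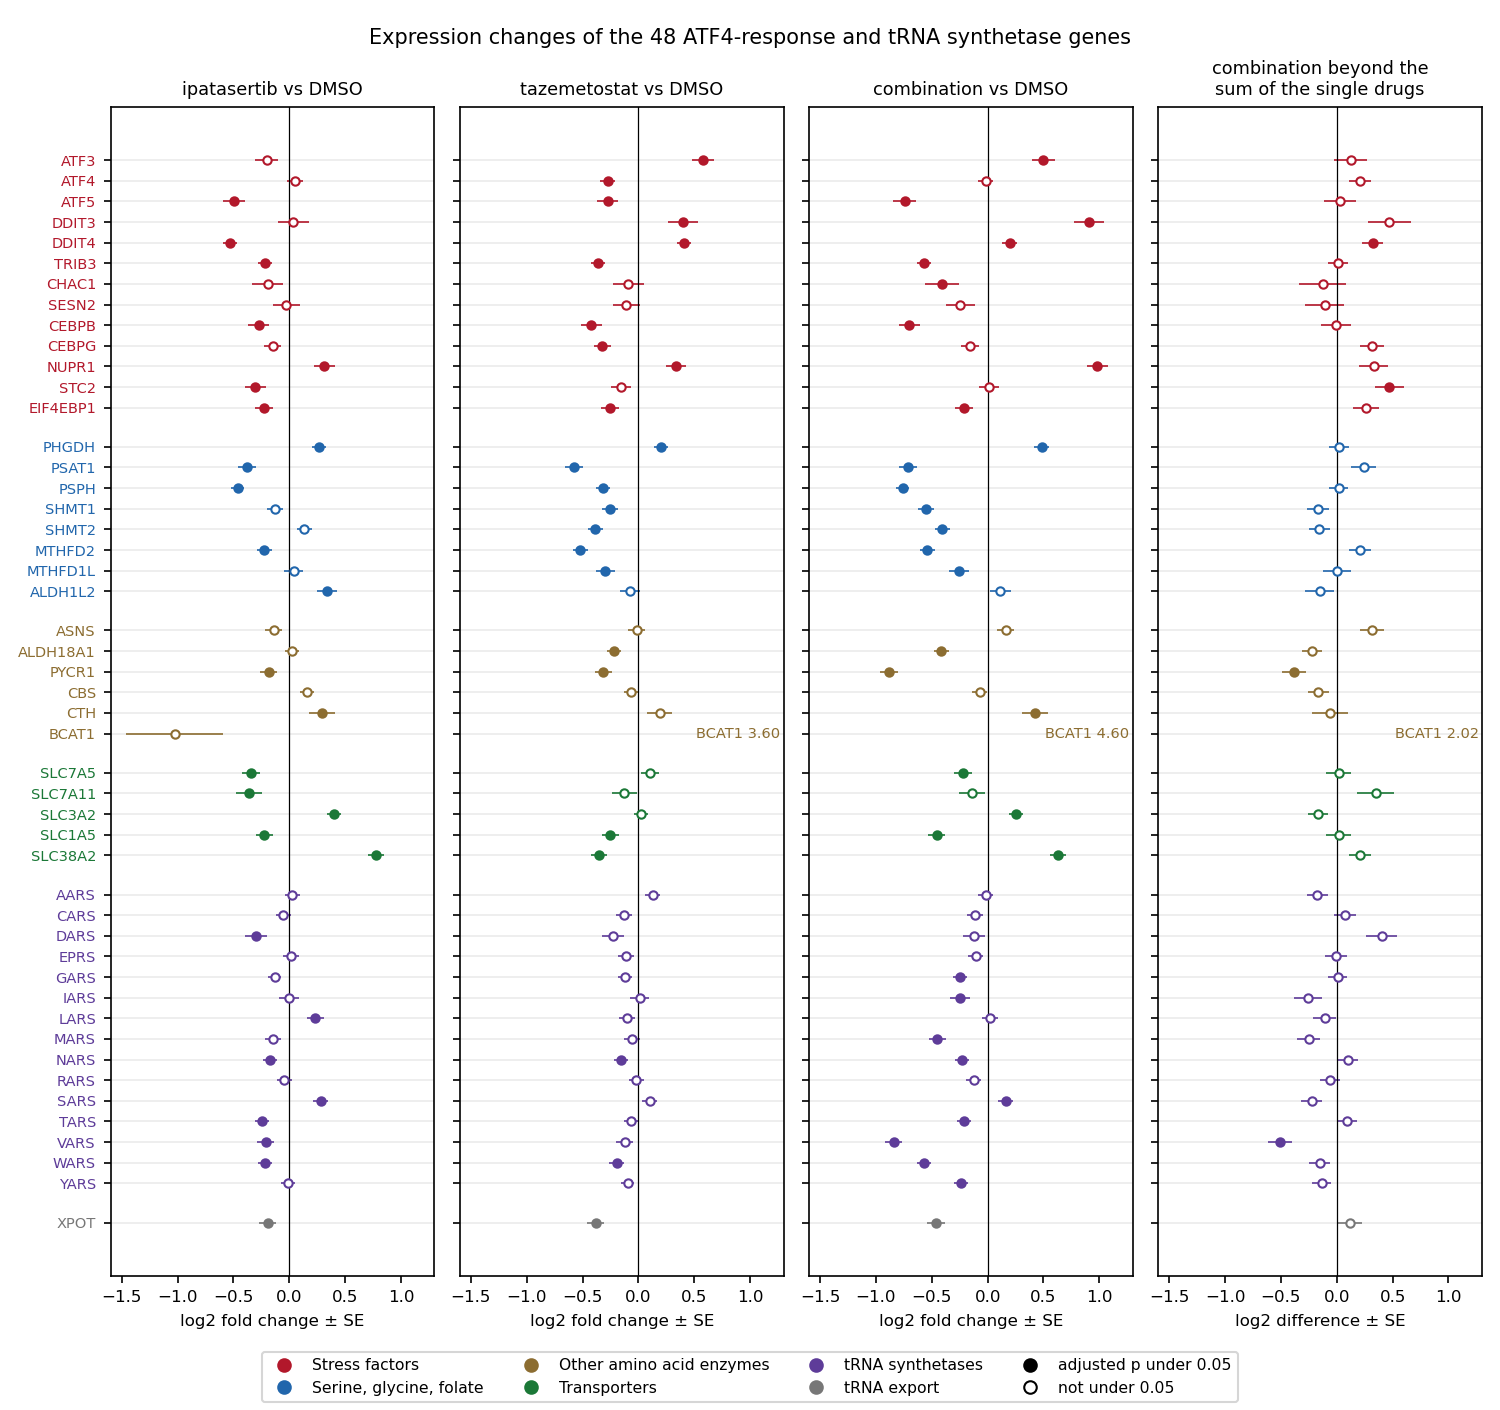
Log2 fold changes ± SE (x axis) of the 48 genes (y axis, coloured by role) with ipatasertib, tazemetostat and the combination against DMSO, and, on the right, the departure of the combination from the sum of the single drugs; filled points have an edgeR adjusted p under 0.05. Falls outnumber rises in each of the 3 comparisons with DMSO (19 to 8, 19 to 6 and 24 to 10); BCAT1 lies beyond the axis in 3 panels and is printed as a number.

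Among the stress factors, ATF4 itself fell with tazemetostat, and its known targets and partners divided: NUPR1, DDIT3 and ATF3 were higher with the combination while ATF5, CEBPB and TRIB3 were lower. Of the 13 stress factors, 1 rose and 6 fell with ipatasertib, 4 rose and 6 fell with tazemetostat, and 4 rose and 5 fell with the combination. Called were 53.8%, 76.9% and 69.2% of the 13, beside 47.1%, 47.2% and 64.4% of all genes. The 5 falls with the combination became 3 without DMSO B or combination C and 8 without the A libraries. The 1 rise with ipatasertib became 0 without DMSO A. ATF4 mRNA had 1143, 1303 and 1336 CPM with ipatasertib, 1015, 983 and 1015 CPM with tazemetostat and 1275, 1181 and 1148 CPM with the combination, against 1134, 1247 and 1269 CPM with DMSO. The tazemetostat libraries lay below all others, and the ipatasertib, combination and DMSO libraries overlapped. Against DMSO, ATF4 had log2 fold changes of 0.051 ± 0.068 (adjusted p = 0.569) with ipatasertib, -0.28 ± 0.069 (adjusted p = 0.00217) with tazemetostat and -0.018 ± 0.069 (adjusted p = 0.829) with the combination. Tazemetostat was also below the other treatments, since ATF4 was 0.33 ± 0.069 (adjusted p = 0.000412) in ipatasertib and 0.26 ± 0.069 (adjusted p = 0.00382) in the combination against tazemetostat. Without the A libraries ATF4 stood at -0.11 ± 0.045 (adjusted p = 0.0301) with the combination. ATF4 has 4 named pseudogenes in GENCODE 29, so its count is uncertain if reads were shared.

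NUPR1, a small nuclear protein induced by stress, had 222, 252 and 259 CPM with ipatasertib, 237, 254 and 254 CPM with tazemetostat and 443, 391 and 333 CPM with the combination, against 173, 204 and 213 CPM with DMSO. All combination libraries exceeded every other library, and the single-drug libraries lay above those with DMSO. On the log2 scale NUPR1 differed from DMSO by 0.31 ± 0.091 (adjusted p = 0.00697) with ipatasertib, 0.34 ± 0.091 (adjusted p = 0.00428) with tazemetostat and 0.98 ± 0.092 (adjusted p = 4.78e-09) with the combination. Its call ended without DMSO A (adjusted p = 0.0733) with ipatasertib and without DMSO A (adjusted p = 0.0517) with tazemetostat. DDIT3, which encodes the transcription factor CHOP, had 5.88, 6.51 and 5.80 CPM with ipatasertib, 6.39, 8.40 and 8.32 CPM with tazemetostat and 10.8, 12.3 and 10.1 CPM with the combination, against 6.74, 4.77 and 6.04 CPM with DMSO. Only the combination stood clear of DMSO in every library. For DDIT3 the log2 fold change relative to DMSO was 0.035 ± 0.14 (adjusted p = 0.859) under ipatasertib, 0.40 ± 0.13 (adjusted p = 0.0184) under tazemetostat and 0.90 ± 0.14 (adjusted p = 4.88e-06) under the combination. The tazemetostat call was lost without DMSO B, tazemetostat B or tazemetostat C (adjusted p of 0.0917 to 0.122). With tazemetostat DDIT3 stood at 0.62 ± 0.14 (adjusted p = 0.000295) without the A libraries. DDIT3 overlaps MARS on the opposite strand, and the sources used here do not give whether counting used strand. How reads were assigned where these 2 genes overlap is therefore not known. NUPR1 and DDIT3 exceeded their single-drug levels in the combination: NUPR1 by 0.67 ± 0.091 (adjusted p = 3.32e-06) over ipatasertib and 0.65 ± 0.091 (adjusted p = 5.37e-06) over tazemetostat, and DDIT3 by 0.87 ± 0.14 (adjusted p = 2.27e-05) and 0.51 ± 0.13 (adjusted p = 0.00339). The departure from the sum of the single effects did not pass the threshold for either gene (NUPR1 0.33 ± 0.13, adjusted p = 0.0907, DDIT3 0.47 ± 0.19, adjusted p = 0.106).

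ATF3, another stress-induced factor, averaged 9.07 ± 0.853 CPM with ipatasertib, 15.5 ± 1.45 CPM with tazemetostat and 14.7 ± 0.213 CPM with the combination, against 10.4 ± 0.780 CPM with DMSO. It rose by 0.58 ± 0.099 (adjusted p = 5.71e-05) with tazemetostat and 0.50 ± 0.10 (adjusted p = 0.000249) with the combination, and stood at -0.20 ± 0.10 (adjusted p = 0.119) with ipatasertib, or -0.30 ± 0.12 (adjusted p = 0.0287) without the A libraries. DDIT4, which restrains mTORC1, had opposite changes with the single drugs, at 82.7 ± 1.08 CPM with ipatasertib, 158 ± 6.76 CPM with tazemetostat and 137 ± 10.4 CPM with the combination, against 119.6 ± 3.76 CPM with DMSO. Its log2 fold change was -0.53 ± 0.067 (adjusted p = 1.27e-06) with ipatasertib, 0.41 ± 0.066 (adjusted p = 2.85e-05) with tazemetostat and 0.20 ± 0.067 (adjusted p = 0.0132) with the combination. The combination call of DDIT4 ended without DMSO A, DMSO C or combination A (adjusted p of 0.0658 to 0.146), with no filter on low counts (adjusted p = 0.0557) or without all A libraries (log2 fold change of 0.12, adjusted p = 0.0561).

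ATF5, a relative of ATF4 controlled in a like way, had 21.3, 18.9 and 22.9 CPM with ipatasertib, 22.2, 26.1 and 25.4 CPM with tazemetostat and 20.3, 15.8 and 17.1 CPM with the combination, against 27.3, 31.4 and 30.8 CPM with DMSO. The DMSO libraries were the highest and did not overlap with any treatment. Ipatasertib gave ATF5 a log2 fold change of -0.50 ± 0.098 (adjusted p = 0.000246) against DMSO, tazemetostat -0.28 ± 0.096 (adjusted p = 0.0225) and the combination -0.74 ± 0.10 (adjusted p = 1.77e-06). CEBPB, a dimer partner of ATF4, had 128, 154 and 162 CPM with ipatasertib, 132, 126 and 143 CPM with tazemetostat and 129, 101 and 99.3 CPM with the combination, against 167, 187 and 183 CPM with DMSO. Again every treated library lay below every DMSO library, while the treated groups overlapped one another. The log2 fold change against DMSO was -0.27 ± 0.093 (adjusted p = 0.0188) with ipatasertib, -0.42 ± 0.093 (adjusted p = 0.000777) with tazemetostat and -0.70 ± 0.095 (adjusted p = 1.15e-06) with the combination. The call of CEBPB with ipatasertib ended without DMSO B, DMSO C or ipatasertib A (adjusted p of 0.061 to 0.0905), and that of ATF5 with tazemetostat without DMSO B, DMSO C or tazemetostat A (adjusted p of 0.0771 to 0.0886) or with library totals alone (adjusted p = 0.0929). TRIB3, a pseudokinase that binds ATF4 and AKT, fell by 0.22, 0.36 and 0.57 on the log2 scale with ipatasertib, tazemetostat and the combination, and all 3 calls held in every setting tried. CEBPG, another partner, fell with tazemetostat (-0.32 ± 0.077, adjusted p = 0.00154) and stood at -0.15 ± 0.077 (adjusted p = 0.125) with ipatasertib and -0.16 ± 0.078 (adjusted p = 0.0816) with the combination. These 2 were called without the A libraries, at -0.16 ± 0.062 (adjusted p = 0.0303) and -0.16 ± 0.064 (adjusted p = 0.0248).

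EIF4EBP1, the inhibitor of cap-dependent translation that mTORC1 phosphorylates, had 63.9, 75.5 and 76.1 CPM with ipatasertib, 68.6, 69.8 and 73.4 CPM with tazemetostat and 80.7, 69.8 and 66.4 CPM with the combination, against 79.6, 84.99 and 87.5 CPM with DMSO. Its treated libraries overlapped one another, and those of the combination overlapped DMSO. Against DMSO, EIF4EBP1 had log2 fold changes of -0.23 ± 0.081 (adjusted p = 0.0253) with ipatasertib, -0.25 ± 0.081 (adjusted p = 0.0141) with tazemetostat and -0.21 ± 0.082 (adjusted p = 0.0269) with the combination. The ipatasertib call was lost without DMSO B, DMSO C or ipatasertib A (adjusted p of 0.0682 to 0.103) or with library totals alone (adjusted p = 0.0598). That with tazemetostat was lost without DMSO C (adjusted p = 0.0665) or with library totals alone (adjusted p = 0.0679). That with the combination was lost without DMSO B, DMSO C, combination B or combination C (adjusted p of 0.0592 to 0.143) or with library totals alone (adjusted p = 0.0993). With the combination EIF4EBP1 stood at -0.34 ± 0.063 (adjusted p = 1.63e-05) without the A libraries. STC2, a secreted glycoprotein induced by stress, fell with ipatasertib (-0.30 ± 0.091, adjusted p = 0.0089) and stood at -0.16 ± 0.090 (adjusted p = 0.154) with tazemetostat and 0.010 ± 0.092 (adjusted p = 0.927) with the combination. The ipatasertib call ended without ipatasertib C (adjusted p = 0.0628). CHAC1, which degrades glutathione, passed the threshold only with the combination (-0.41 ± 0.15, adjusted p = 0.0225), and that call ended without DMSO B or combination C (adjusted p of 0.0812 to 0.138). SESN2, a leucine sensor that restrains mTORC1, was not called in any of these comparisons (-0.025, -0.11 and -0.24) with all libraries. It was called with the combination when the A libraries were left out (-0.31 ± 0.13, adjusted p = 0.0304).

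**Figure D2:**
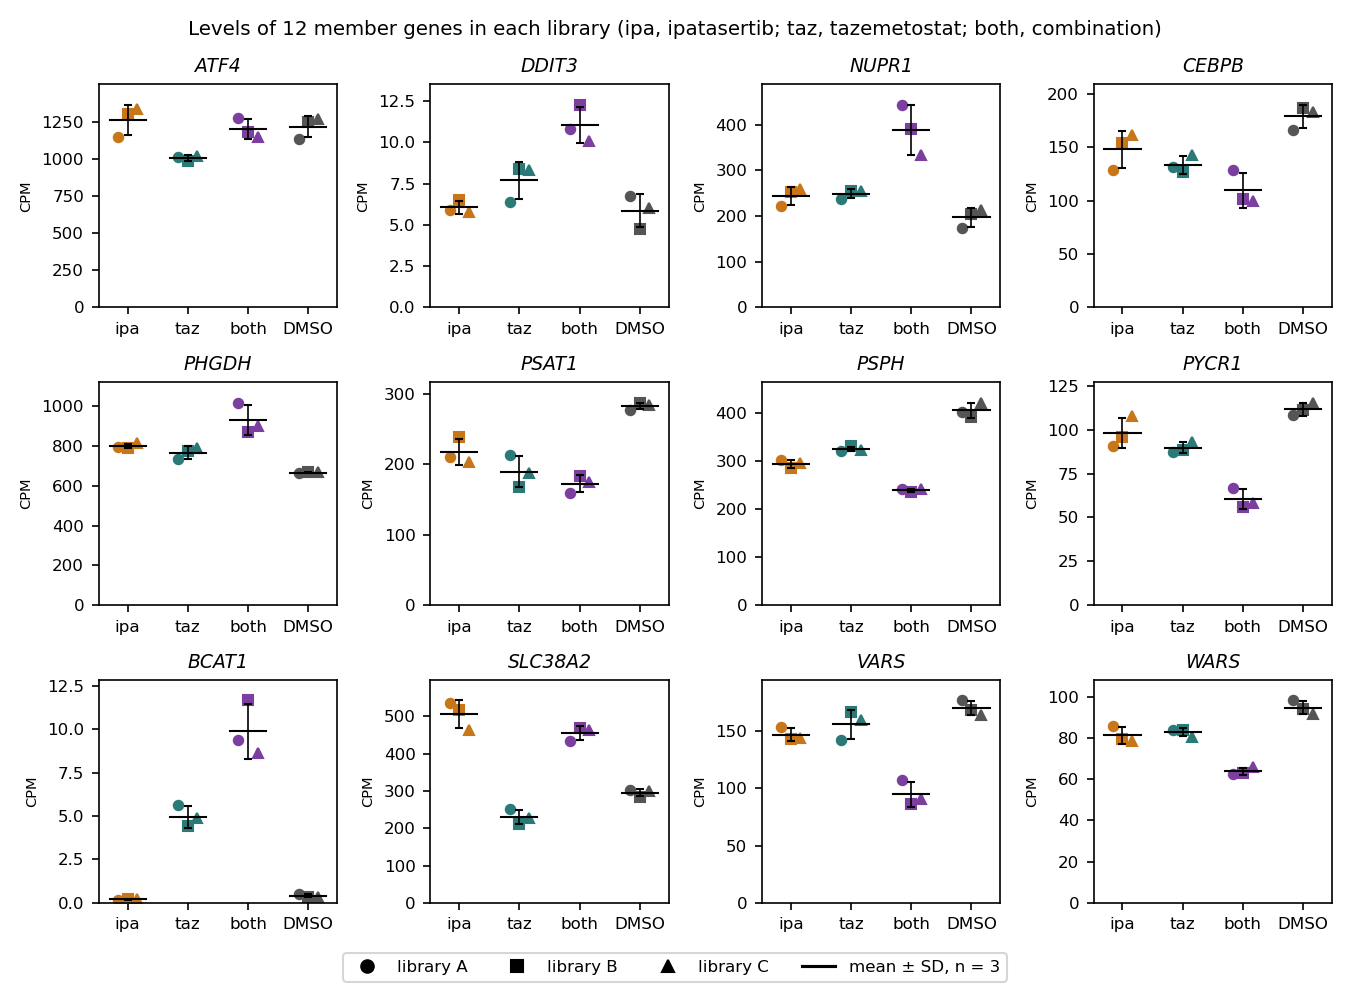
CPM (y axis) of 12 members in each library of the 4 groups (x axis), with library A as a circle, B as a square and C as a triangle, and the mean ± SD of 3 libraries as lines. NUPR1, DDIT3, PHGDH and BCAT1 are highest with the combination, while PSPH, PYCR1, VARS and WARS are lowest there.

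The serine pathway split at its first step: PHGDH rose with each treatment, while PSAT1 and PSPH, which catalyse the following steps, fell with each. Of the 8 enzymes of serine, glycine and mitochondrial folate metabolism, 2 rose and 3 fell with ipatasertib, 1 rose and 6 fell with tazemetostat, and 1 rose and 6 fell with the combination. In either direction 62.5%, 87.5% and 87.5% were called, beside 47.1%, 47.2% and 64.4% of all genes. The rises with ipatasertib were 1 without ipatasertib A, and that with tazemetostat became 0 without DMSO A, tazemetostat B or tazemetostat C. PHGDH had 796, 792 and 814 CPM with ipatasertib, 733, 777 and 793 CPM with tazemetostat and 1019.6, 873 and 904 CPM with the combination, against 664, 668 and 669 CPM with DMSO. All treated libraries lay above all DMSO libraries, and the combination libraries lay above those of both single drugs. On the log2 scale PHGDH differed from DMSO by 0.26 ± 0.064 (adjusted p = 0.00176) with ipatasertib, 0.20 ± 0.064 (adjusted p = 0.0125) with tazemetostat and 0.48 ± 0.064 (adjusted p = 9.11e-07) with the combination. The tazemetostat call of PHGDH ended without DMSO A, tazemetostat B or tazemetostat C (adjusted p of 0.0504 to 0.0752). PSAT1, the aminotransferase of the pathway, had 211, 238 and 204 CPM with ipatasertib, 212, 168 and 188 CPM with tazemetostat and 159.5, 183 and 174 CPM with the combination, against 277, 286 and 284 CPM with DMSO. Here DMSO was highest without overlap, and the tazemetostat and combination libraries overlapped. For PSAT1 the log2 fold change relative to DMSO was -0.38 ± 0.080 (adjusted p = 0.000525) under ipatasertib, -0.58 ± 0.080 (adjusted p = 4.12e-06) under tazemetostat and -0.71 ± 0.081 (adjusted p = 9.56e-08) under the combination. PSPH, the phosphatase of the last step, had 302, 286 and 296 CPM with ipatasertib, 322, 331 and 324 CPM with tazemetostat and 241, 236 and 241 CPM with the combination, against 403, 392 and 422 CPM with DMSO. The 4 groups did not overlap in any library, in the order combination, ipatasertib, tazemetostat and DMSO from low to high. Ipatasertib gave PSPH a log2 fold change of -0.46 ± 0.059 (adjusted p = 1.39e-06) against DMSO, tazemetostat -0.32 ± 0.059 (adjusted p = 0.000124) and the combination -0.76 ± 0.059 (adjusted p = 2.12e-10). All 6 calls of PSAT1 and PSPH against DMSO held in every setting. PSAT1 has 4 named pseudogenes and PSPH 1.

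Among the enzymes that pass serine carbon to folate, SHMT2, MTHFD2 and MTHFD1L of the mitochondrion fell with tazemetostat, and of these MTHFD2 also fell with ipatasertib. SHMT1, the cytosolic serine hydroxymethyltransferase, had 49.5, 50.8 and 54.8 CPM with ipatasertib, 45.1, 48.7 and 47.9 CPM with tazemetostat and 40.6, 36.1 and 38.5 CPM with the combination, against 56.2, 57.3 and 55.9 CPM with DMSO. Every group was lower than DMSO in each library, and the combination was lowest. The log2 fold change against DMSO was -0.13 ± 0.070 (adjusted p = 0.142) with ipatasertib, -0.26 ± 0.070 (adjusted p = 0.00449) with tazemetostat and -0.55 ± 0.073 (adjusted p = 7.60e-07) with the combination. MTHFD2, the mitochondrial dehydrogenase and cyclohydrolase of folate, had 181, 183 and 161 CPM with ipatasertib, 149, 136 and 142 CPM with tazemetostat and 133, 145 and 144 CPM with the combination, against 204, 199 and 209.8 CPM with DMSO. The tazemetostat and combination libraries overlapped and both lay below ipatasertib, which lay below DMSO. Against DMSO, MTHFD2 had log2 fold changes of -0.23 ± 0.067 (adjusted p = 0.00799) with ipatasertib, -0.52 ± 0.067 (adjusted p = 1.37e-06) with tazemetostat and -0.54 ± 0.068 (adjusted p = 3.98e-07) with the combination. Its ipatasertib call ended without ipatasertib C (adjusted p = 0.0668), and 7 named pseudogenes make its count uncertain. SHMT2, the mitochondrial counterpart of SHMT1, averaged 229 ± 1.76 CPM with ipatasertib, 159 ± 5.89 CPM with tazemetostat and 157 ± 15.8 CPM with the combination, against 208 ± 2.29 CPM with DMSO. It fell by 0.39 and 0.41 on the log2 scale with tazemetostat and the combination, and the value of 0.14 ± 0.067 (adjusted p = 0.106) with ipatasertib was not called; without the A libraries it was, at 0.13 ± 0.052 (adjusted p = 0.0359). Between the single drugs SHMT2 was 0.52 ± 0.068 (adjusted p = 1.35e-06) in ipatasertib against tazemetostat. MTHFD1L, which releases formate, fell with tazemetostat (-0.30 ± 0.086, adjusted p = 0.00707) and the combination (-0.25 ± 0.088, adjusted p = 0.0154), of which the first ended without DMSO A (adjusted p = 0.061). The combination call of MTHFD1L ended without DMSO A or combination B (adjusted p of 0.0603 to 0.0993), with library totals alone (adjusted p = 0.0668) or without all A libraries (log2 fold change of -0.098, adjusted p = 0.278), and its tazemetostat value without those libraries was -0.19 ± 0.074 (adjusted p = 0.0247). ALDH1L2, which oxidises formyl-folate in mitochondria, rose with ipatasertib (0.34 ± 0.090, adjusted p = 0.0038), a call that ended without ipatasertib A (adjusted p = 0.063).

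The other amino acid enzymes showed the largest single change of the 48, the rise of BCAT1 with tazemetostat and the combination. ASNS was not called against DMSO in the fit of all libraries with TMM factors. Of these 6 genes, 1 rose and 1 fell with ipatasertib, 1 rose and 2 fell with tazemetostat, and 2 rose and 2 fell with the combination. Calls thus covered 33.3%, 50% and 66.7% of the 6, beside 47.1%, 47.2% and 64.4% of all genes. The rise and the fall with ipatasertib were each lost without several single libraries, as given below for CTH and PYCR1, and 2 fell without the A libraries. BCAT1, the cytosolic aminotransferase of branched-chain amino acids, had 0.174, 0.213 and 0.197 CPM with ipatasertib, 5.66, 4.41 and 4.87 CPM with tazemetostat and 9.36, 11.7 and 8.64 CPM with the combination, against 0.497, 0.363 and 0.333 CPM with DMSO. These levels rest on 4, 4 and 5 counts with ipatasertib, 108, 118 and 117 with tazemetostat and 169, 154 and 124 with the combination, against 14, 8 and 9 with DMSO. No group overlapped with another, and ipatasertib was lowest. On the log2 scale BCAT1 differed from DMSO by -1.03 ± 0.44 (adjusted p = 0.0588) with ipatasertib, 3.60 ± 0.22 (adjusted p = 1.19e-11) with tazemetostat and 4.60 ± 0.21 (adjusted p = 2.16e-14) with the combination. The combination exceeded tazemetostat by 0.995 ± 0.14 (adjusted p = 4.60e-06), a fold of 1.99. Its departure from the sum of the single effects, 2.02 ± 0.46 (adjusted p = 0.00887), rests on the few ipatasertib and DMSO counts. BCAT1 overlaps AC023796.2, AC026310.2 and AC026310.3 on the opposite strand in GENCODE 29, so its count is uncertain if counting ignored strand. PYCR1, which completes proline synthesis in mitochondria, had 91.04, 96.2 and 108 CPM with ipatasertib, 87.3, 88.7 and 93.4 CPM with tazemetostat and 67.04, 55.97 and 58.3 CPM with the combination, against 108, 111 and 116 CPM with DMSO. All treated libraries were below DMSO and those of the combination were lowest, without overlap with either drug. For PYCR1 the log2 fold change relative to DMSO was -0.18 ± 0.075 (adjusted p = 0.0486) under ipatasertib, -0.32 ± 0.075 (adjusted p = 0.00157) under tazemetostat and -0.88 ± 0.078 (adjusted p = 1.97e-09) under the combination. The ipatasertib call was lost without DMSO B, DMSO C, ipatasertib A, ipatasertib B or combination C (adjusted p of 0.0541 to 0.154), with library totals alone (adjusted p = 0.122), with the filter of 50 counts (adjusted p = 0.055) or with the replicate block (adjusted p = 0.0705).

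ALDH18A1, which makes the precursor of proline and ornithine, had 104, 106 and 98.8 CPM with ipatasertib, 85.99, 85.6 and 88.2 CPM with tazemetostat and 78.3, 70.9 and 77.6 CPM with the combination, against 103, 97.3 and 102 CPM with DMSO. It was lowest with the combination, and ipatasertib overlapped DMSO. Ipatasertib gave ALDH18A1 a log2 fold change of 0.027 ± 0.064 (adjusted p = 0.758) against DMSO, tazemetostat -0.22 ± 0.064 (adjusted p = 0.00724) and the combination -0.41 ± 0.065 (adjusted p = 9.06e-06). With totals alone as scaling the tazemetostat call was lost (adjusted p = 0.0643). ASNS, asparagine synthetase, had 117, 119 and 115 CPM with ipatasertib, 138, 118 and 127 CPM with tazemetostat and 127, 153 and 153 CPM with the combination, against 126, 128 and 134 CPM with DMSO. Tazemetostat and combination libraries overlapped DMSO, and ipatasertib lay slightly below DMSO. The log2 fold change against DMSO was -0.14 ± 0.075 (adjusted p = 0.132) with ipatasertib, -0.015 ± 0.075 (adjusted p = 0.889) with tazemetostat and 0.16 ± 0.075 (adjusted p = 0.0666) with the combination. The combination was above ipatasertib by 0.30 ± 0.076 (adjusted p = 0.00256), and without the A libraries ASNS was called against DMSO at -0.16 ± 0.056 (adjusted p = 0.017) with ipatasertib and 0.23 ± 0.057 (adjusted p = 0.000766) with the combination. With library totals alone ASNS was also called higher with the combination. ASNS has 4 named pseudogenes. CTH, which makes cysteine from cystathionine, had 7.97, 7.47 and 7.49 CPM with ipatasertib, 6.18, 7.36 and 7.69 CPM with tazemetostat and 7.81, 9.25 and 8.15 CPM with the combination, against 6.03, 6.13 and 6.56 CPM with DMSO. The combination lay above DMSO and tazemetostat in all libraries. Against DMSO, CTH had log2 fold changes of 0.29 ± 0.11 (adjusted p = 0.0374) with ipatasertib, 0.19 ± 0.11 (adjusted p = 0.178) with tazemetostat and 0.42 ± 0.12 (adjusted p = 0.00353) with the combination. Its ipatasertib call was lost without any single library of ipatasertib or DMSO (adjusted p up to 0.143) and without tazemetostat B or tazemetostat C (adjusted p of 0.0577 to 0.0586). The same call was lost with DESeq2 (adjusted p = 0.0756), with no filter (adjusted p = 0.0711), without all A libraries (adjusted p = 0.142) and with the replicate block (adjusted p = 0.054). CBS, the step before CTH, stood at 0.16, -0.066 and -0.072 with ipatasertib, tazemetostat and the combination and was not called against DMSO. It was called without the A libraries with ipatasertib (0.17 ± 0.056, adjusted p = 0.0125) and the combination (-0.13 ± 0.058, adjusted p = 0.0436).

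Transporters divided by drug: SLC38A2 and SLC3A2 were higher with ipatasertib and the combination, while SLC1A5 was lower with all 3 treatments. Of the 5 transporters 2 rose and 3 fell with ipatasertib, 0 rose and 2 fell with tazemetostat, and 2 rose and 2 fell with the combination. Their shares called were 100%, 40% and 80%, beside 47.1%, 47.2% and 64.4% of all genes. The falls became 1 without DMSO C with tazemetostat, and 1 without DMSO C, combination B or combination C with the combination. With tazemetostat 1 rose when the A libraries were left out. SLC38A2, the sodium-coupled neutral amino acid transporter SNAT2, had 536, 516 and 463 CPM with ipatasertib, 251, 212 and 228 CPM with tazemetostat and 434, 469 and 462 CPM with the combination, against 302, 284 and 299 CPM with DMSO. The ipatasertib and combination libraries overlapped and exceeded DMSO, and the tazemetostat libraries lay below DMSO. On the log2 scale SLC38A2 differed from DMSO by 0.78 ± 0.071 (adjusted p = 1.56e-08) with ipatasertib, -0.36 ± 0.072 (adjusted p = 0.00031) with tazemetostat and 0.63 ± 0.072 (adjusted p = 1.07e-07) with the combination. SLC38A2 was thus 1.13 ± 0.072 (adjusted p = 1.51e-11) in ipatasertib against tazemetostat, and its departure from the sum, 0.21 ± 0.10 (adjusted p = 0.177), was not called. SLC3A2, the heavy chain shared by the LAT1 and xCT exchangers, had 291, 296 and 289.8 CPM with ipatasertib, 215, 227 and 234 CPM with tazemetostat and 284, 253 and 256 CPM with the combination, against 219.8, 225 and 221 CPM with DMSO. It was higher with ipatasertib and with the combination than in each DMSO library. For SLC3A2 the log2 fold change relative to DMSO was 0.40 ± 0.062 (adjusted p = 1.95e-05) under ipatasertib, 0.021 ± 0.062 (adjusted p = 0.804) under tazemetostat and 0.25 ± 0.063 (adjusted p = 0.00137) under the combination. SLC1A5, the glutamine and neutral amino acid transporter ASCT2, had 482, 448 and 473 CPM with ipatasertib, 428, 473 and 473 CPM with tazemetostat and 454, 362 and 376 CPM with the combination, against 520.3, 539 and 576 CPM with DMSO. All treated libraries lay below DMSO and overlapped one another. Ipatasertib gave SLC1A5 a log2 fold change of -0.22 ± 0.077 (adjusted p = 0.0211) against DMSO, tazemetostat -0.25 ± 0.077 (adjusted p = 0.0101) and the combination -0.46 ± 0.077 (adjusted p = 2.25e-05). The single-drug calls of SLC1A5 were lost without DMSO C or ipatasertib B (adjusted p of 0.0629 to 0.106) or with library totals alone (adjusted p = 0.0571) and without DMSO C (adjusted p = 0.0629) or with library totals alone (adjusted p = 0.0577).

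SLC7A11, the cystine transporter of xCT, had 12.3, 12.1 and 10.3 CPM with ipatasertib, 15.9, 12.1 and 13.02 CPM with tazemetostat and 12.1, 14.5 and 14.00 CPM with the combination, against 13.2, 16.3 and 15.2 CPM with DMSO. The ipatasertib libraries were below DMSO, and tazemetostat and the combination overlapped DMSO. The log2 fold change against DMSO was -0.36 ± 0.11 (adjusted p = 0.0121) with ipatasertib, -0.13 ± 0.11 (adjusted p = 0.367) with tazemetostat and -0.14 ± 0.12 (adjusted p = 0.307) with the combination. SLC7A11 was called lower with tazemetostat when the A libraries were left out (-0.32 ± 0.10, adjusted p = 0.00707). The ipatasertib call ended without DMSO B or ipatasertib C (adjusted p of 0.0642 to 0.0802), and SLC7A11 has an antisense gene whose reads may be included. SLC7A5, the light chain of LAT1, averaged 188 ± 15.4 CPM with ipatasertib, 257 ± 24.1 CPM with tazemetostat and 205 ± 19.9 CPM with the combination, against 239 ± 6.05 CPM with DMSO. It fell with ipatasertib (-0.34 ± 0.080, adjusted p = 0.00126) and the combination (-0.22 ± 0.080, adjusted p = 0.0204) and stood at 0.10 ± 0.080 (adjusted p = 0.291) with tazemetostat, or 0.17 ± 0.052 (adjusted p = 0.00519) without the A libraries. Its combination call ended without DMSO C, combination B or combination C (adjusted p of 0.0622 to 0.111) or with library totals alone (adjusted p = 0.0938). With ipatasertib the light chain of LAT1 was thus lower and its heavy chain higher, and both calls held in every setting.

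The 15 synthetases charge tRNAs with their amino acids in the cytosol, and their log2 fold changes with all libraries lay between -0.30 and 0.28 with ipatasertib and between -0.22 and 0.13 with tazemetostat. Of the 15, 2 rose and 5 fell with ipatasertib, 0 rose and 2 fell with tazemetostat, and 1 rose and 8 fell with the combination. Per cent called was 46.7%, 13.3% and 60.0%, against 47.1%, 47.2% and 64.4% of all genes. Leaving out the A libraries, 2 rose and 5 fell with tazemetostat. AARS (0.19 ± 0.054, adjusted p = 0.00375) and SARS (0.17 ± 0.053, adjusted p = 0.00558) were then called higher. DARS, EPRS (-0.19 ± 0.050, adjusted p = 0.00199) and GARS (-0.15 ± 0.050, adjusted p = 0.0127) were then called lower, beside NARS and WARS. The 2 called with all libraries thus became 7. The tazemetostat falls numbered 5 without tazemetostat A, 4 without combination A, 0 without tazemetostat C and 1 without DMSO A, DMSO C, ipatasertib C, tazemetostat B or combination B. With ipatasertib the falls became 3 without DMSO B and 2 without ipatasertib C, and the rises became 1 without DMSO C or ipatasertib A. With the combination the range widened to -0.84 to 0.16, and VARS, WARS and MARS were the lowest. VARS, the valyl-tRNA synthetase, had 153, 143 and 144 CPM with ipatasertib, 142, 166 and 159.6 CPM with tazemetostat and 107, 86.2 and 90.5 CPM with the combination, against 177, 169 and 164 CPM with DMSO. The combination libraries stood below all others, and tazemetostat overlapped DMSO. Against DMSO, VARS had log2 fold changes of -0.21 ± 0.077 (adjusted p = 0.0297) with ipatasertib, -0.12 ± 0.077 (adjusted p = 0.196) with tazemetostat and -0.84 ± 0.080 (adjusted p = 5.75e-09) with the combination. The ipatasertib call ended without DMSO A, DMSO B, ipatasertib B or ipatasertib C (adjusted p of 0.0611 to 0.0858) or with library totals alone (adjusted p = 0.0893), while the fall in the combination held in every setting. WARS, the tryptophanyl-tRNA synthetase that interferon also induces, had 86.03, 79.7 and 78.5 CPM with ipatasertib, 83.9, 83.9 and 80.5 CPM with tazemetostat and 62.7, 63.3 and 65.8 CPM with the combination, against 98.4, 94.3 and 91.9 CPM with DMSO. Treated and DMSO libraries did not overlap, and the combination was lowest. On the log2 scale WARS differed from DMSO by -0.22 ± 0.064 (adjusted p = 0.00722) with ipatasertib, -0.20 ± 0.064 (adjusted p = 0.0152) with tazemetostat and -0.57 ± 0.066 (adjusted p = 1.16e-07) with the combination. Its tazemetostat call ended without tazemetostat C (adjusted p = 0.0537) or with library totals alone (log2 fold change of -0.13, adjusted p = 0.129).

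MARS, the methionyl-tRNA synthetase, had 216, 199.9 and 192 CPM with ipatasertib, 202, 229.8 and 214 CPM with tazemetostat and 170.1, 147 and 174 CPM with the combination, against 226, 226 and 219 CPM with DMSO. Every combination library was lower than every other library, and without the A libraries ipatasertib was also called, at -0.19 ± 0.061 (adjusted p = 0.0115). For MARS the log2 fold change relative to DMSO was -0.15 ± 0.072 (adjusted p = 0.105) under ipatasertib, -0.054 ± 0.072 (adjusted p = 0.563) under tazemetostat and -0.45 ± 0.073 (adjusted p = 1.40e-05) under the combination. MARS thus fell with the combination while DDIT3, which it overlaps, rose. DARS, the aspartyl-tRNA synthetase, had 176, 214 and 189 CPM with ipatasertib, 242, 176 and 192 CPM with tazemetostat and 193, 239.9 and 222 CPM with the combination, against 228, 248 and 237 CPM with DMSO. The ipatasertib libraries lay below DMSO, and the tazemetostat and combination libraries overlapped DMSO. Ipatasertib gave DARS a log2 fold change of -0.30 ± 0.099 (adjusted p = 0.016) against DMSO, tazemetostat -0.22 ± 0.098 (adjusted p = 0.0658) and the combination -0.12 ± 0.099 (adjusted p = 0.287). The call with ipatasertib ended without DMSO B, ipatasertib A or ipatasertib C (adjusted p of 0.052 to 0.0701), and without the A libraries tazemetostat stood at -0.40 ± 0.059 (adjusted p = 7.86e-07). SARS was the only synthetase called higher with the combination (0.16 ± 0.066, adjusted p = 0.0386), and that call ended in 11 of the 20 other settings; with ipatasertib SARS (0.28 ± 0.066, adjusted p = 0.00128) and LARS (0.23 ± 0.072, adjusted p = 0.0101) rose. GARS, IARS, NARS, TARS and YARS also fell with the combination, by 0.25, 0.25, 0.23, 0.21 and 0.24 on the log2 scale; TARS stood at -0.14 ± 0.049 (adjusted p = 0.0117) without the A libraries. The call of IARS ended without DMSO A, combination A or combination B (adjusted p of 0.0534 to 0.0719), with library totals alone (adjusted p = 0.0709) or without all A libraries (log2 fold change of -0.11, adjusted p = 0.146). AARS, CARS, EPRS, LARS and RARS were not called there, with log2 fold changes of -0.018, -0.11, -0.11, 0.020 and -0.12; without the A libraries CARS (-0.15 ± 0.065, adjusted p = 0.0446) and LARS (0.13 ± 0.056, adjusted p = 0.0437) were called. Among the 6 synthetases with a printed element, IARS, MARS, NARS and TARS fell with the combination and AARS and CARS were not called. Of all 15 synthetases 8 fell, beside 30% of all genes. These included GARS, with TGATGAAA, and WARS, with a matched promoter and no response element. VARS and YARS, with no matched promoter, fell too. A link between element and change was not tested.

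XPOT, the exporter of tRNA from the nucleus, had 135, 147 and 132 CPM with ipatasertib, 134, 114 and 115 CPM with tazemetostat and 103, 119 and 124 CPM with the combination, against 165, 159 and 149.8 CPM with DMSO. Every DMSO library lay above every treated library. The log2 fold change against DMSO was -0.19 ± 0.078 (adjusted p = 0.0443) with ipatasertib, -0.38 ± 0.078 (adjusted p = 0.000375) with tazemetostat and -0.46 ± 0.079 (adjusted p = 2.87e-05) with the combination. Its ipatasertib call was lost without DMSO A, DMSO B, ipatasertib A or ipatasertib C (adjusted p of 0.0759 to 0.15), with library totals alone (adjusted p = 0.11), with the filter of 50 counts (adjusted p = 0.0543) or with the replicate block (adjusted p = 0.0738). The NARS call with ipatasertib was lost without DMSO C or ipatasertib C (adjusted p of 0.0969 to 0.121), with library totals alone (adjusted p = 0.0905) or with the replicate block (adjusted p = 0.0572). The NARS call with tazemetostat was lost without DMSO A, DMSO C, ipatasertib C, tazemetostat B, tazemetostat C or combination B (adjusted p of 0.0521 to 0.179), with library totals alone (log2 fold change of -0.085, adjusted p = 0.28) or with the filter of 50 counts (adjusted p = 0.0729).

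Other synthetase genes had medians at or below those of the members. The other cytosolic list of 8 genes (5 synthetase genes and the scaffold genes AIMP1, AIMP2 and EEF1E1) had 1 higher and 6 lower with ipatasertib, 0 higher and 7 lower with tazemetostat and 1 higher and 7 lower with the combination. The shares called were 87.5%, 87.5% and 100%, beside 47.1%, 47.2% and 64.4% of all genes. Its median log2 fold changes were -0.20, -0.31 and -0.57, beside -0.053, -0.11 and -0.21 for the 15 members. EEF1E1, a scaffold protein of the synthetase complex, averaged 14.3 ± 1.66 CPM with ipatasertib, 17.1 ± 2.97 CPM with tazemetostat and 12.5 ± 3.55 CPM with the combination, against 25.3 ± 2.08 CPM with DMSO, and its log2 fold change was -0.82 ± 0.14, -0.57 ± 0.14 and -1.02 ± 0.15 (adjusted p = 3.97e-06) in that order of treatments. FARSB and FARSA, the subunits of phenylalanyl-tRNA synthetase, stood at -0.87 ± 0.082 (adjusted p = 6.41e-09) and -0.73 ± 0.083 (adjusted p = 1.01e-07) with the combination. Of 17 mitochondrial synthetases, 5 rose and 4 fell with ipatasertib, 0 rose and 9 fell with tazemetostat, and 1 rose and 12 fell with the combination, with medians of -0.063, -0.22 and -0.35 and 52.9%, 52.9% and 76.5% called. EARS2 (-0.72 ± 0.078, adjusted p = 4.11e-08), MARS2 (-0.67 ± 0.10, adjusted p = 8.02e-06) and CARS2 (-0.62 ± 0.067, adjusted p = 4.21e-08), for glutamate, methionine and cysteine, fell most among those called with the combination. The 5 mitochondrial rises with ipatasertib became 1 without DMSO C and 3 without DMSO B, ipatasertib A or ipatasertib B, and the 4 falls became 2 without DMSO B; with tazemetostat 1 rose without the A libraries. The 6 falls of the other cytosolic list with ipatasertib became 3 without DMSO B or ipatasertib A.

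**Figure D3:**
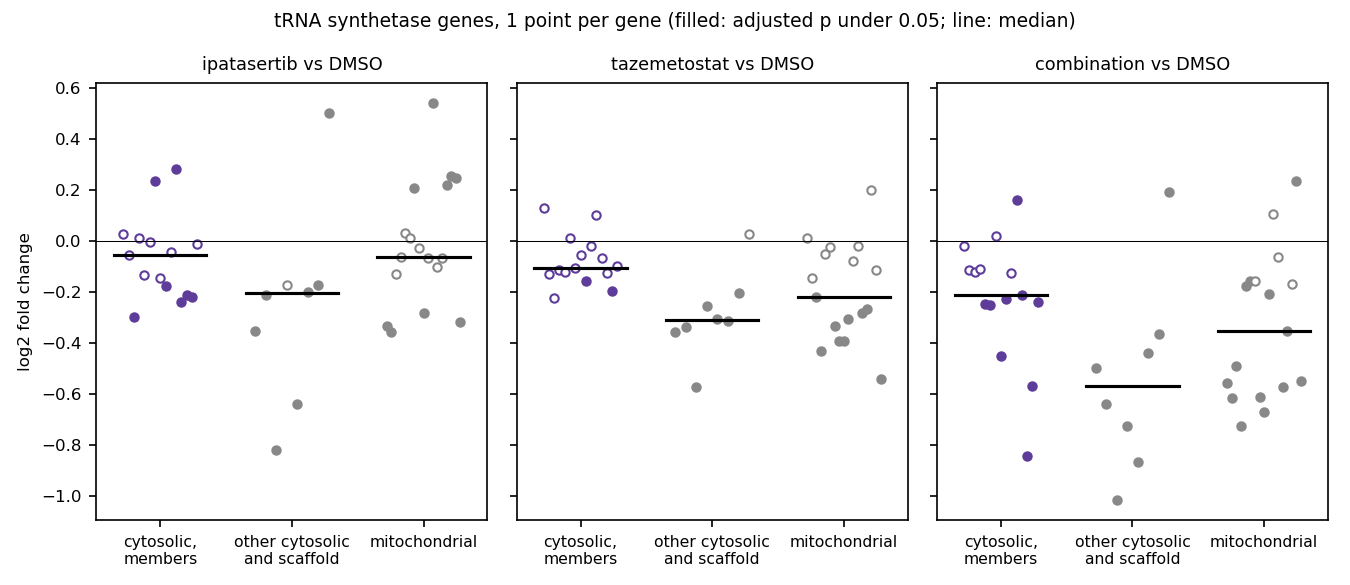
Log2 fold change against DMSO (y axis) of the 15 member synthetases, 8 other cytosolic synthetase and scaffold genes and 17 mitochondrial synthetases (x axis, 1 point per gene, horizontal spread only to part the points), in 3 panels for ipatasertib, tazemetostat and the combination; filled points have an edgeR adjusted p under 0.05 and the bar is the median. The medians with the combination are -0.21, -0.57 and -0.35.

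Of the members, 8 rose and 19 fell in the combination against ipatasertib, beside 24.2% and 20.7% of all genes (44.9% called). ATF3, DDIT3, DDIT4, NUPR1, ASNS and BCAT1 rose and kept the call in every setting, as did the falls of TRIB3, CEBPB, PSAT1, PSPH, SHMT1, SHMT2, MTHFD2, MTHFD1L, ALDH18A1, PYCR1, MARS, VARS, WARS, YARS and XPOT. The falls of IARS (-0.083 ± 0.066, adjusted p = 0.298) and LARS (-0.13 ± 0.056, adjusted p = 0.0514) were lost without the A libraries. ATF4 (-0.18 ± 0.045, adjusted p = 0.00109), ATF5, EIF4EBP1, SLC3A2 and SARS were then called lower, and SLC7A11 and DARS higher. That setting moved CEBPB (-0.65 ± 0.061, adjusted p = 7.19e-11) and PHGDH (0.14 ± 0.046, adjusted p = 0.00835) by over 1.5 times. VARS and PYCR1 had -0.63 ± 0.080 (adjusted p = 1.10e-06) and -0.70 ± 0.078 (adjusted p = 1.94e-07). In the combination against tazemetostat 7 rose and 14 fell, beside 23.2% and 23.1% of all genes (46.3% called). ATF4, SLC38A2 (0.98 ± 0.072, adjusted p = 3.48e-10) and SLC3A2 (0.23 ± 0.063, adjusted p = 0.00461) were among the rises, and SLC7A5 (-0.33 ± 0.080, adjusted p = 0.00215) and VARS (-0.72 ± 0.080, adjusted p = 1.92e-07) among the falls. Leaving out combination B gave 8 falls, and without the A libraries 12 rose. CEBPG, ASNS, DARS, EPRS and LARS were then newly called higher, and SHMT2, AARS and YARS lower. That setting ended the fall of IARS (-0.13 ± 0.065, adjusted p = 0.0867) and moved CEBPB (-0.42 ± 0.061, adjusted p = 4.47e-07), SLC1A5 (-0.36 ± 0.050, adjusted p = 2.61e-07), PHGDH (0.18 ± 0.046, adjusted p = 0.00135) and SLC3A2 (0.14 ± 0.051, adjusted p = 0.0167). Between the single drugs, ipatasertib against tazemetostat, 12 were higher and 7 lower, beside 22.4% and 26% of all genes (48.3% called). The higher ones included 5 of the 8 serine and folate enzymes and ATF4, and the lower ones DDIT4 (-0.94 ± 0.067, adjusted p = 9.89e-11), ATF3 (-0.78 ± 0.10, adjusted p = 1.39e-06) and BCAT1 (-4.63 ± 0.26, adjusted p = 2.43e-12). Of those 5 enzymes, PSAT1 lost the call in 11 of the 20 other settings. PSPH, the 1 of the 8 called lower, lost it in 13 of the 20. Without the A libraries 12 were lower. Newly called there were TRIB3, CEBPB, CEBPG, PYCR1, EPRS and XPOT as higher, and ATF5, STC2, AARS, MARS and VARS as lower. All these comparisons share libraries with those against DMSO and are not independent of them.

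For 43 of the 48 genes the combination did not depart from the sum of the single log2 effects beyond the threshold. The interaction was called higher for 3 members and lower for 2, beside 5.96% and 6.01% of all genes (12% called). BCAT1 (2.02 ± 0.46, adjusted p = 0.00887), STC2 (0.47 ± 0.13, adjusted p = 0.0233) and DDIT4 (0.32 ± 0.094, adjusted p = 0.0306) were above the sum, and VARS (-0.51 ± 0.11, adjusted p = 0.00745) and PYCR1 (-0.38 ± 0.11, adjusted p = 0.026) below it. BCAT1 and VARS kept the call in every setting. STC2 lost it without DMSO C or ipatasertib C (adjusted p of 0.0702 to 0.0748). DDIT4 lost it without DMSO B, DMSO C, ipatasertib C or tazemetostat C (adjusted p of 0.0522 to 0.0923), with library totals alone (adjusted p = 0.0641) or with the replicate block (adjusted p = 0.0706). PYCR1 lost it without DMSO A, DMSO B, DMSO C, ipatasertib C, tazemetostat B, tazemetostat C, combination B or combination C (adjusted p of 0.0538 to 0.0915) or with the replicate block (adjusted p = 0.0523). VARS fell by 0.84 with both drugs, where its single-drug values were -0.21 and -0.12. PYCR1 fell by 0.88, where its single-drug values were -0.18 and -0.32. This count depended on single libraries: it was 9 higher and 4 lower without tazemetostat A, 1 higher without DMSO C, 1 lower without DMSO A, and 13 higher and 10 lower without the A libraries of all groups. Among the members called in that setting, and not with all libraries, were SLC7A11 (0.68 ± 0.16, adjusted p = 0.000851), DARS (0.59 ± 0.085, adjusted p = 2.36e-06), ASNS (0.48 ± 0.080, adjusted p = 2.19e-05) and CEBPG (0.44 ± 0.090, adjusted p = 0.000249).

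**Figure D4:**
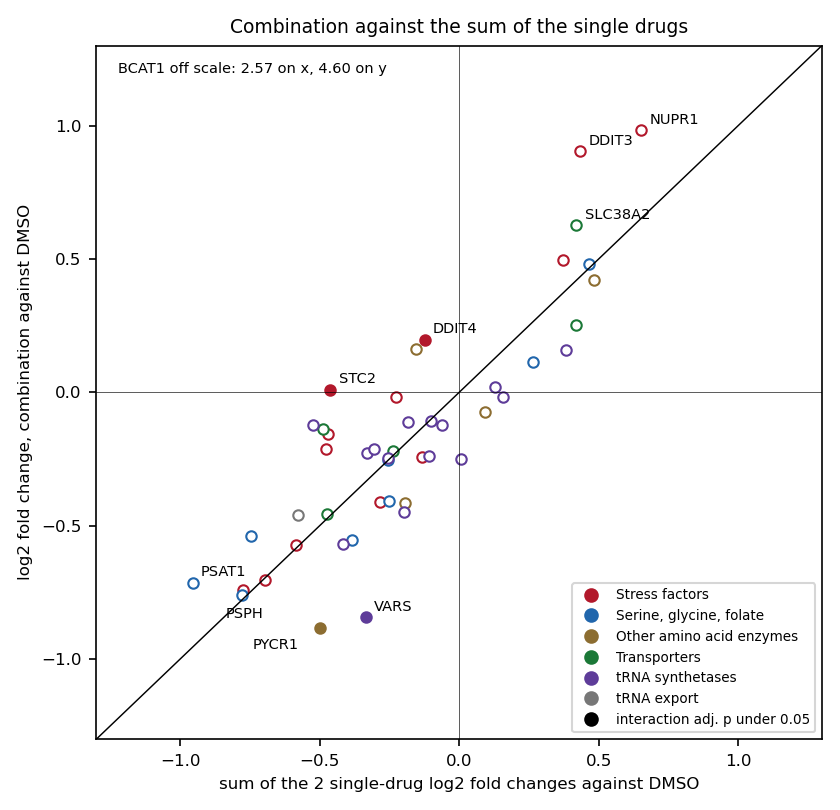
Log2 fold change of each member with the combination against DMSO (y axis) plotted over the sum of its log2 fold changes with ipatasertib and tazemetostat (x axis); the diagonal marks equality, colours give the role, and filled points have an interaction with an edgeR adjusted p under 0.05. PYCR1 and VARS lie below the diagonal and DDIT4 and STC2 above it; BCAT1 is off the scale and printed as a number.

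Of 17 genes upstream of ATF4 (kinases, eIF2, its exchange factor and phosphatases) 5 rose and 5 fell with ipatasertib, 2 rose and 10 fell with tazemetostat and 4 rose and 10 fell with the combination. Of the 17, 58.8%, 70.6% and 82.4% were called beside 47.1%, 47.2% and 64.4% of all genes. The 5 rises with ipatasertib became 3 without DMSO A, DMSO B, DMSO C or ipatasertib B, and the 2 with tazemetostat became 1 without DMSO A, tazemetostat B or tazemetostat C. EIF2AK3, the kinase PERK of unfolded protein, averaged 31.4 ± 1.16 CPM with ipatasertib, 38.9 ± 1.15 CPM with tazemetostat and 39.1 ± 0.452 CPM with the combination, against 28.8 ± 0.307 CPM with DMSO; it rose with tazemetostat (0.43 ± 0.069, adjusted p = 2.35e-05) and the combination (0.44 ± 0.071, adjusted p = 1.16e-05). EIF2AK4, the amino acid sensor GCN2, stood at 0.17 ± 0.066, -0.10 ± 0.067 and 0.0035 ± 0.068 with ipatasertib, tazemetostat and the combination; the first passed (adjusted p = 0.0446) and lost the call in 12 of the 20 other settings. EIF2AK2, the double-stranded RNA sensor PKR, fell with each treatment (-0.46, -0.21 and -0.37), the second call ending without DMSO A, DMSO B or tazemetostat C (adjusted p of 0.0572 to 0.116) or with library totals alone (adjusted p = 0.136). EIF2AK1, the heme-regulated kinase, stood at 0.047, -0.21 and -0.15; the last 2 were called, and that with tazemetostat ended with library totals alone (adjusted p = 0.0501). The combination call of EIF2AK1 ended without DMSO B, DMSO C, combination A or combination B (adjusted p of 0.0587 to 0.0805), with library totals alone (log2 fold change of -0.085, adjusted p = 0.208) or with the filter of 50 counts (adjusted p = 0.065). EIF2S1, the phosphorylated subunit of eIF2, fell to 121 ± 7.26 CPM with the combination, against 183 ± 2.00 CPM with DMSO (-0.60 ± 0.067, adjusted p = 7.52e-08), and EIF2B3, a subunit of its exchange factor, to 22.4 ± 0.971 CPM with the combination, against 48.03 ± 2.39 CPM with DMSO (-1.10 ± 0.075, adjusted p = 2.64e-11). PPP1R15A, which recruits the phosphatase that reverses eIF2 phosphorylation and is itself an ATF4 target, rose with each treatment. PPP1R15A had 48.5, 51.3 and 50.9 CPM with ipatasertib, 31.2, 40.7 and 38.6 CPM with tazemetostat and 71.1, 57.6 and 58.2 CPM with the combination, against 25.97, 29.4 and 32.5 CPM with DMSO. Its log2 fold change was 0.78 ± 0.10 (adjusted p = 2.06e-06), 0.34 ± 0.10 (adjusted p = 0.00977) and 1.09 ± 0.10 (adjusted p = 5.13e-09) in that order of treatments. The tazemetostat call ended without DMSO A, tazemetostat B or tazemetostat C (adjusted p of 0.0504 to 0.0905).

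Of 16 genes of the unfolded protein response in the endoplasmic reticulum, under XBP1 and ATF6, 5 rose and 8 fell with ipatasertib, 6 rose and 2 fell with tazemetostat, and 6 rose and 8 fell with the combination. Called were 81.3%, 50% and 87.5%, beside 47.1%, 47.2% and 64.4% of all genes. The 2 falls with tazemetostat became 1 without DMSO C, tazemetostat B or tazemetostat C. HSPA5, the chaperone BiP, averaged 384 ± 16.3 CPM with ipatasertib, 605 ± 41.97 CPM with tazemetostat and 461 ± 31.2 CPM with the combination, against 573 ± 14.8 CPM with DMSO. It fell with ipatasertib (-0.58 ± 0.068, adjusted p = 4.77e-07) and the combination (-0.31 ± 0.068, adjusted p = 0.000347) and was not called with tazemetostat (0.080 ± 0.067, adjusted p = 0.347). SDF2L1 and CRELD2, genes of protein folding in the endoplasmic reticulum, stood at -1.17 and -1.03 with the combination, while ATF6 was 0.62, all 3 called. Of 16 other reported ATF4 targets that could be tested, from a list of 19, 3 rose and 4 fell with ipatasertib, 8 rose and 1 fell with tazemetostat and 7 rose and 5 fell with the combination. Of this list 43.8%, 56.3% and 75% were called, beside 47.1%, 47.2% and 64.4% of all genes. The 1 fall with tazemetostat became 2 without tazemetostat A and 3 without the A libraries. FAM129A averaged 25.1 ± 1.85 CPM with ipatasertib, 104 ± 3.48 CPM with tazemetostat and 107 ± 2.13 CPM with the combination, against 25.98 ± 1.09 CPM with DMSO. GRB10, an adaptor that restrains insulin receptor signalling, averaged 25.3 ± 1.09 CPM with ipatasertib, 54.5 ± 4.43 CPM with tazemetostat and 51.5 ± 2.86 CPM with the combination, against 28.01 ± 0.492 CPM with DMSO. Both rose with tazemetostat (2.004 ± 0.072, adjusted p = 1.04e-15 and 0.96 ± 0.076, adjusted p = 8.49e-10), and SLC43A1, a transporter of large neutral amino acids, rose with ipatasertib (1.40 ± 0.14, adjusted p = 3.29e-08).

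In glutamine and proline metabolism (13 genes tested of 14), 3 rose and 5 fell with ipatasertib, 3 rose and 6 fell with tazemetostat and 1 rose and 10 fell with the combination. The shares called were 61.5%, 69.2% and 84.6%, where all genes had 47.1%, 47.2% and 64.4%. The 5 falls with ipatasertib became 3 without ipatasertib C, and the 3 rises with tazemetostat became 1 without any single DMSO library, tazemetostat B or tazemetostat C. The 1 that rose with the combination was GLUL, glutamine synthetase. GLUL had 448, 472 and 477 CPM with ipatasertib, 710.0, 668 and 679 CPM with tazemetostat and 1030.2, 1019.8 and 1049 CPM with the combination, against 384, 371 and 381 CPM with DMSO. The 4 groups did not overlap, and the log2 fold change was 0.30 ± 0.058 (adjusted p = 0.00023), 0.86 ± 0.058 (adjusted p = 6.29e-11) and 1.45 ± 0.059 (adjusted p = 3.50e-15) in that order of treatments. PYCRL, another reductase of proline synthesis, fell with the combination (-0.93 ± 0.15, adjusted p = 1.07e-05) as PYCR1 did, and GOT2, the mitochondrial aspartate aminotransferase, fell too (-0.65 ± 0.063, adjusted p = 7.88e-09). Of 7 glutathione genes, 1 rose and 4 fell with ipatasertib, 0 rose and 4 fell with tazemetostat and 0 rose and 6 fell with the combination (71.4%, 57.1% and 85.7% called). The 1 rise with ipatasertib was lost without any single DMSO or ipatasertib library, tazemetostat B or tazemetostat C, and 1 rise with the combination appeared without combination A; 1 rose with tazemetostat and 1 with the combination without the A libraries. CHAC2, the relative of CHAC1, had 6.59, 7.51 and 5.50 CPM with the combination, against 24.9, 22.4 and 23.5 CPM with DMSO (-1.86 ± 0.11, adjusted p = 3.96e-12), and GGCT and GCLM stood at -0.69 and -0.45, both called.

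In cytosolic folate metabolism and glycine cleavage (13 tested of 15), 1 rose and 6 fell with ipatasertib, 3 rose and 4 fell with tazemetostat and 2 rose and 7 fell with the combination. The shares called were 53.8%, 53.8% and 69.2%, beside 47.1%, 47.2% and 64.4% of all genes. The 1 rise with ipatasertib became 0 without DMSO C or ipatasertib C and 2 without combination C. TYMS, thymidylate synthase, and MTHFD1, the cytosolic folate enzyme, fell with the combination (-0.70 ± 0.087, adjusted p = 3.87e-07 and -0.66 ± 0.064, adjusted p = 7.21e-09), and SFXN3, a mitochondrial serine carrier, rose (1.08 ± 0.12, adjusted p = 4.99e-08). Of 13 tested genes of the mTORC1 amino acid branch, 7 rose and 1 fell with ipatasertib, 5 rose and 1 fell with tazemetostat and 8 rose and 1 fell with the combination. Called were 61.5%, 46.2% and 69.2%, the last 2 near the 47.2% and 64.4% of all genes. The fall with ipatasertib became 2 without ipatasertib A, combination A or any single tazemetostat library, and that with tazemetostat became 0 without DMSO B, DMSO C, tazemetostat B or tazemetostat C; 2 fell with the combination without the A libraries. RRAGD and RRAGC encode GTPases that bring mTORC1 to the lysosome, and TSC1 restrains mTORC1. RRAGD averaged 24.8 ± 2.54 CPM with ipatasertib, 128 ± 3.64 CPM with tazemetostat and 129.5 ± 3.13 CPM with the combination, against 21.2 ± 1.14 CPM with DMSO, with 2.59 ± 0.078 (adjusted p = 8.51e-17) for tazemetostat against DMSO. RRAGC and TSC1 stood at 0.76 ± 0.070 (adjusted p = 3.14e-09) and 0.99 ± 0.087 (adjusted p = 1.84e-09) with the combination. MYC, a transcription factor also known to raise serine synthesis genes, averaged 101 ± 2.97 CPM with ipatasertib, 39.7 ± 2.25 CPM with tazemetostat and 30.1 ± 1.78 CPM with the combination, against 69.3 ± 2.77 CPM with DMSO. Its log2 fold change was 0.55 ± 0.068 (adjusted p = 1.02e-06) with ipatasertib, -0.80 ± 0.071 (adjusted p = 4.30e-09) with tazemetostat and -1.20 ± 0.074 (adjusted p = 4.49e-12) with the combination; its part in the members' values was not tested. EZH2, the enzyme that tazemetostat inhibits, stood at -0.060 ± 0.073 (adjusted p = 0.521) with tazemetostat and fell with ipatasertib (-0.48 ± 0.074, adjusted p = 1.63e-05) and the combination (-0.65 ± 0.075, adjusted p = 1.34e-07).

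All 48 genes together took 0.9602% ± 0.0081 of the gene counts with ipatasertib, 0.905% ± 0.010 under tazemetostat and 0.920% ± 0.017 under both drugs, against 0.942% ± 0.0022 with DMSO (SD, n = 3). With TMM-scaled totals as the denominator the shares were 0.961%, 0.888% and 0.909%, against 0.971% with DMSO, so ipatasertib stood above DMSO by the first and below it by the second. These are descriptions, and no test was made of a sum over the members.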

How the data were processed

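Per the labels, poly(A) RNA came from the RNeasy Plus kit and libraries from Kapa Hyper Prep reagents. For each of 12 libraries the authors deposited a file of raw counts by gene symbol. STAR, SAMtools, HTSeq, DESeq2 and the build hg19 stand in the submitters' processing notes, without versions; for annotation and strand, none was given in the sources used here. A second deposited table, a normalized signal by the authors, served only as a check: in each column it equalled the counts over 1 constant in 100% of 23202 genes (tolerance 0.001). Summary lines without a gene did not enter totals or tests.

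R 4.3.3 and edgeR 4.0.16 were used, with TMM factors and filterByExpr at a minimum count of 10. A single robust quasi-likelihood model took all 12 libraries, 1 mean for each group and 8 residual degrees of freedom. Benjamini-Hochberg adjustment ran over 14571 genes, with a threshold of 0.05. The 7 comparisons were each treatment against DMSO, the treatments against one another, and the interaction (the combination minus both single effects). The procedure was tested on simulated counts. The members and lists were chosen with earlier results of these data known. Members given with values in every library were ATF4, ASNS, PHGDH, SLC7A11, EIF4EBP1 and, per role, the 4 with the largest called log2 fold change against DMSO or in the interaction and a group mean of at least 5 CPM. At most 3 genes per neighbouring list were named by their called change against DMSO, besides the eIF2 kinases, PPP1R15A, HSPA5, MYC and EZH2. Overlaps and pseudogenes are from GENCODE 29, and promoters and their coordinates from RefSeq.

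Same-letter deviations correlated above the bound of 0.1 in all 3 pairs only for ipatasertib and DMSO (0.412, 0.138 and 0.115). The own letter was the best match for 1 of these 3, so pairing by letter is not shown. For that comparison the replicate block by letter is given where it ends a call. Alternatives also included DESeq2 1.42.0, RLE factors or totals alone as scaling, no filter or one of 50 counts in 3 libraries, fits of the compared groups alone, each library left out, and all A libraries left out. Limits of 3 counts cover counting error only, while the SE of a log2 fold change also reflects the spread among libraries.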

Additional observations from a re-analysis of the deposited data

Results flagged for a closer look

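For 5 members the combination departed from the sum of the single-drug effects by edgeR's test of that difference, of 48 tested. This is 10.4% of the members, beside 12% of all genes. Of the 5, only BCAT1 and VARS kept the call in every setting. The departure on the log2 scale was 2.02 ± 0.46 (adjusted p = 0.00887) for BCAT1, 0.47 ± 0.13 (adjusted p = 0.0233) for STC2, 0.32 ± 0.094 (adjusted p = 0.0306) for DDIT4, -0.38 ± 0.11 (adjusted p = 0.026) for PYCR1 and -0.51 ± 0.11 (adjusted p = 0.00745) for VARS. Without the A libraries the values were 1.88 ± 0.62 (adjusted p = 0.0159), 0.46 ± 0.11 (adjusted p = 0.00146), 0.24 ± 0.080 (adjusted p = 0.016), -0.52 ± 0.091 (adjusted p = 3.92e-05) and -0.67 ± 0.079 (adjusted p = 1.47e-07) in the same order. BCAT1 rests on 4 to 5 counts per ipatasertib library and 8 to 14 per DMSO library. With 3 libraries in each group, no Dixon test for a single deviating value was made.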

How the results depend on the processing

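No called member changed direction under any alternative run. Calls held in every setting for 12 of 27 members with ipatasertib, 15 of 25 with tazemetostat and 27 of 34 with the combination against DMSO, for 21 of 27 and 15 of 21 in the combination against ipatasertib and against tazemetostat, for 14 of 19 between the single drugs, and for 2 of 5 interactions. Without the A libraries, members called higher numbered 12 in the combination against tazemetostat, members called lower numbered 12 in ipatasertib against tazemetostat, and the interaction had 2611 genes higher, 2836 lower, 13 members higher and 10 lower, against 869, 875, 3 and 2 with all libraries. With the replicate block, ipatasertib against tazemetostat had 4 members lower, and the interaction had 533 genes higher, 479 lower and 1 member lower. The block ended PYCR1, CTH, NARS and XPOT with ipatasertib and no other member's call there. Between the other groups, same-letter correlations did not all pass the bound. There the block ended 1 call with tazemetostat, 1 with the combination, 1 in the combination against tazemetostat, 5 between the single drugs and 2 interactions, those of DDIT4 and PYCR1. Library totals gave 1369 genes lower in the interaction, DESeq2 6 members higher and no filter 7. The cause of these shifts was not tested.

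Leaving out 1 library at a time gave these counts of members higher and lower: 5 to 9 and 12 to 21 with ipatasertib, 4 to 7 and 15 to 21 with tazemetostat, 8 to 11 and 20 to 25 with the combination, 7 to 8 and 16 to 22 in the combination against ipatasertib, 7 to 10 and 8 to 16 against tazemetostat, 10 to 15 and 5 to 8 in ipatasertib against tazemetostat, and 1 to 9 and 1 to 4 for the interaction. Genes called higher and lower ranged over 2777 to 3716 and 2838 to 3746 with ipatasertib, 3116 to 3942 and 2454 to 3668 with tazemetostat, 4494 to 5174 and 3981 to 4620 with the combination, 2981 to 3753 and 2273 to 3494 in the combination against ipatasertib, 2808 to 3563 and 2808 to 3542 against tazemetostat, 2677 to 3540 and 3385 to 3913 between the single drugs, and 354 to 1870 and 270 to 1819 for the interaction. Depth limits BCAT1 most, at 4 to 14 counts in ipatasertib and DMSO libraries.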
